A study of Mus musculus with 6 samples.

Results

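The genes described here are the secreted and membrane proteins at the start of Wnt signalling: 17 Wnt ligands, 11 receptors (9 Frizzled genes with Lrp5 and Lrp6) and 9 secreted inhibitors. They were taken by gene symbol, and all 37 were among the 18193 genes with a probe set that the platform annotation assigns to a single symbol. Where a gene had several probe sets, the brightest by mean log2 signal over the 6 arrays stood for it. The arrays hold RNA from lung cells of 4-month-old female mice on a mixed Bl6/129 background, with 3 arrays of Bmi1 wild-type mice and 3 of mice whose genotype is given as Bmi1 null. In both genotypes the cells were live and sorted as negative for CD31, an endothelial surface protein, and CD45, a surface protein of blood cells. Replicates are named biological, but whether each is 1 mouse or a pool is not said, so p values reflect only the spread among these arrays.

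Wnt proteins are secreted, lipid-modified signals that act over short distances. A Wnt that binds a Frizzled receptor together with Lrp5 or Lrp6 keeps beta-catenin from being degraded, and beta-catenin then works with TCF and LEF factors at target genes; other Wnts, such as Wnt5a, mostly signal without beta-catenin. Secreted inhibitors act outside the cell: Sfrp proteins, Frzb and Wif1 bind the ligand, and Dkk proteins such as Dkk1 and Dkk2 bind Lrp5 and Lrp6. In the lung, Wnt2 and Wnt5a are known from mesenchyme and Wnt7b from epithelium. Bmi1 is a subunit of Polycomb repressive complex 1, which silences developmental genes, and the comparison asks which genes differ in lung cells when Bmi1 is mutated.

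The mutated gene was not lower in the arrays labelled mutant. One Bmi1 probe set had signals of 996, 980 and 1164 across the wild-type replicates and of 1276, 1498 and 1565 across the arrays labelled mutant, and the other read 545, 535 and 684 against 637, 535 and 824 (two-sided exact permutation p = 0.1 and 0.7, where 0.1 is the smallest that 3 arrays against 3 allow). Which part of Bmi1 the allele lacks is not given, and probes that lie elsewhere in the gene check nothing, so each direction below depends on the labels being right. Trimmed mean signals were near 500 on every array, and log2 signals correlated at 0.957 or more between any pair of arrays. Blood cell RNA was present in both genotypes after the sort: Ptprc, which encodes CD45, read 7716 ± 966 in wild type and 5767 ± 852 in arrays labelled mutant (SD, n = 3 each), and the endothelial gene Pecam1, which encodes CD31, read 2247 ± 506 and 2939 ± 247 (SD, n = 3 each).

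Among the 37 genes, the inhibitor Sfrp1 was the only one called, and it rose 3.84 times in mean signal in the arrays labelled mutant. No ligand and no receptor passed the test. Genes were compared on the log2(signal + 16) scale, mutant minus wild type, with limma over all 18193 genes, and a gene was called at a Benjamini-Hochberg adjusted p under 0.05. The share called over all genes was 0.923%, made of 0.412% higher and 0.511% lower, or 75 and 93 genes (120 higher and 88 lower with median centring of each array, 79 and 79 with quantile normalization). At an unadjusted p under 0.05 stood 5 of the 37 genes, Wnt4, Wnt5a, Wnt7a, Sfrp1 and Sfrp2, against 14.5% of all genes. The genotypes did not overlap for 4 of the 37, against 20.5% of all genes, so as a group these genes lay apart no more often than the background.

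The differences leaned upward by small amounts. The median log2 difference was 0.09 over the 17 ligands, 0.12 over the 11 receptors and 0.44 over the 9 inhibitors, against 0.01 over all genes. Of the ligands 10 lay above 0, of the receptors 8 and of the inhibitors 7, against 50.7% of all genes. The medians moved with single arrays. Leaving out an array gave 0.02 (without wild-type replicate 3) to 0.18 (without mutant replicate 1) for the ligands, 0.08 (without wild-type replicate 2) to 0.20 (without mutant replicate 2) for the receptors and 0.23 (without wild-type replicate 2) to 0.72 (without wild-type replicate 1) for the inhibitors. With an added 64 they were 0.04, 0.10 and 0.19, and with the mean of a gene's probe sets the receptors stood at 0.26. Median centring shifts the difference of every gene by the same amount. It gave 0.18, 0.21 and 0.54, against 0.10 over all genes, so that these stay above 0 adds nothing. Quantile normalization gave 0.07, 0.15 and 0.53, against 0.02 over all genes. Many members were dim: 15 of the 37, among them 10 ligands, had a mean signal below 100 in both genotypes, as did 34.96% of all genes. The added 16 pulls differences of such genes toward 0 and understates their folds. Among the 22 brighter members the lowest array was wild-type replicate 2 in 9 and the highest array was mutant replicate 3 in 8.

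**Figure D1:**
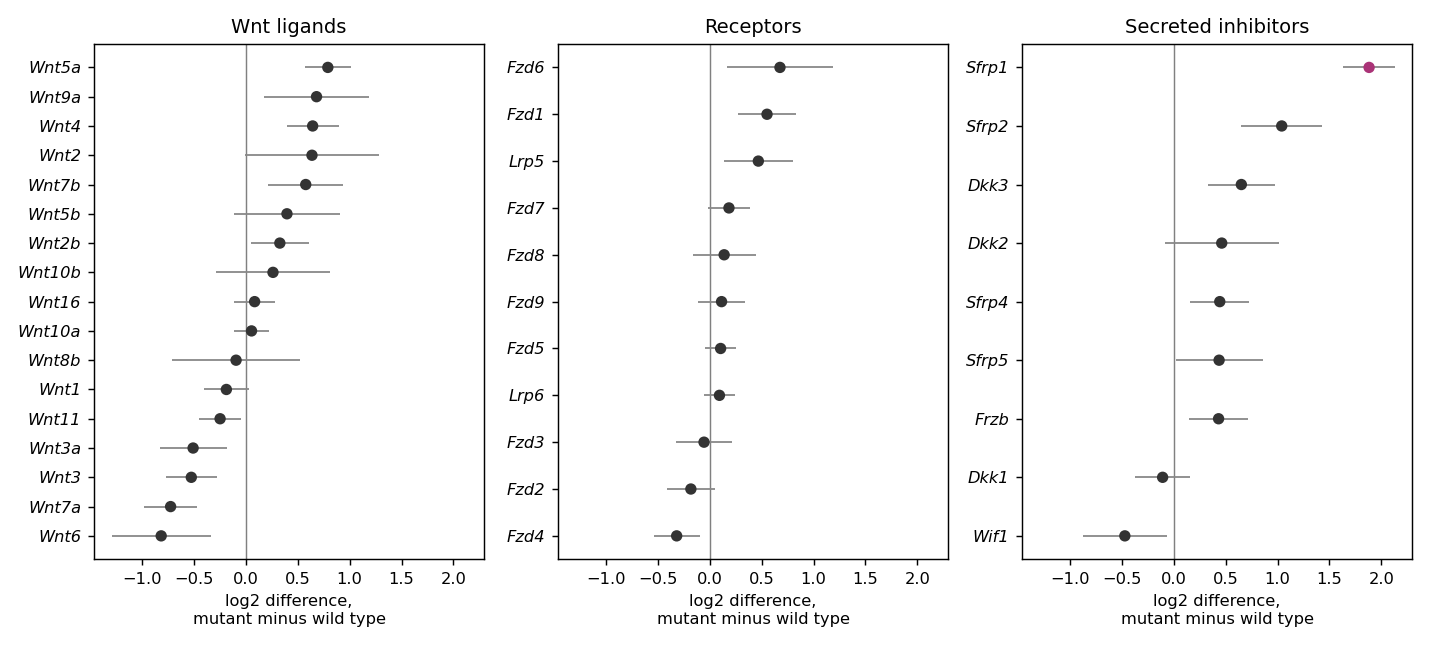
Log2 difference in signal, mutant-labelled minus wild-type arrays, for each ligand, receptor and secreted inhibitor (point) with limma's standard error (bar, 3 arrays per genotype); the called gene is drawn in purple. Sfrp1, at 1.88, stands to the right of every other gene, and the next, Sfrp2 at 1.04, has a wide bar.

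Sfrp1, a secreted Frizzled-related protein that binds Wnt ligands through a cysteine-rich domain like that of the receptors, rose in the arrays labelled mutant. Its signals were 311, 186 and 253 in the wild-type arrays, listed by replicate number as throughout, and 1199, 875 and 807 in the arrays labelled mutant. All arrays labelled mutant lay above all wild-type arrays with a wide gap. Mean signals were 250 ± 62.3 and 960 ± 209 (SD, n = 3 each), and the log2 difference was 1.88 ± 0.25 (SE, limma adjusted p = 0.0291).

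The array carries 5 Sfrp1 probe sets, and they gave the same direction. The probe set with the greatest difference read 65.7, 48.0 and 81.6 in wild type and 465, 405 and 444 in the arrays labelled mutant, a log2 difference of 2.50. The other differences were 1.96, 2.09 and 2.23. When every single-gene probe set was tested by itself with limma, the 5 had adjusted p values from 0.0132 to 0.0420, and they were the only called probe sets of the 73 that belong to the 37 genes. In each of the 5 the genotypes did not overlap. Probe sets of a gene read the same RNA on the same arrays and are not replicates, and 1 of the 5 carries the suffix _x_at, which marks probes that may bind other transcripts.

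**Figure D2:**
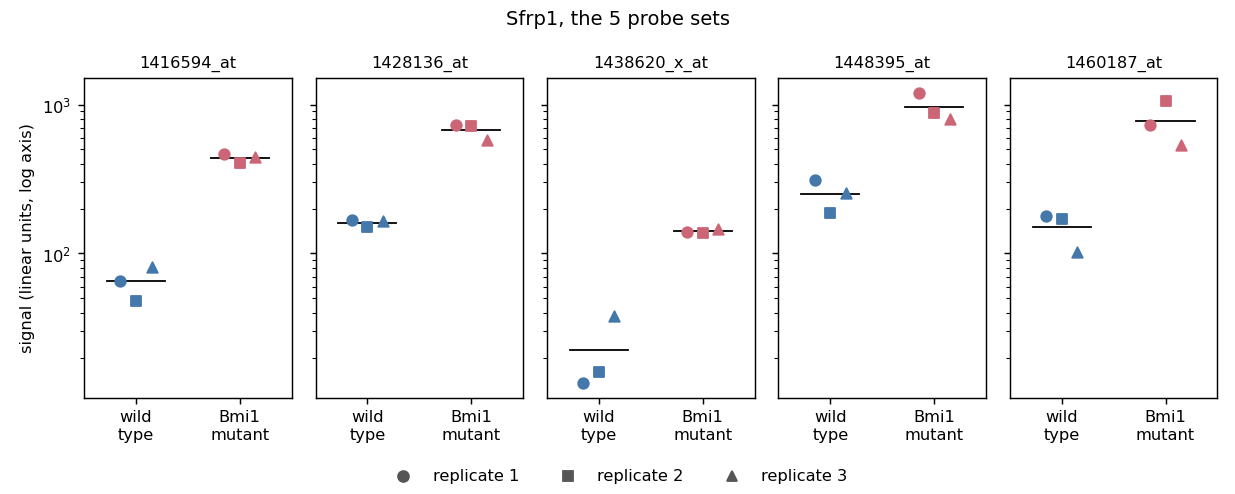
Signal of the 5 Sfrp1 probe sets (linear units on a log axis) in 3 wild-type arrays (blue) and 3 arrays labelled mutant (red); marker shapes give the replicate number and black lines the group means. In every panel the arrays labelled mutant lie above the wild-type arrays, from 465, 405 and 444 against 65.7, 48.0 and 81.6 in the first panel.

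The call of Sfrp1 was lost under several alternatives. With all 6 arrays limma's adjusted p was 0.0774 when replicate numbers were blocked and 0.0808 with an added 1 in place of 16. Leaving out any single array kept a log2 difference between 1.70 and 2.04 but gave adjusted p values from 0.0529 (without wild-type replicate 1) to 0.119 (without wild-type replicate 3), so that no member was called without wild-type replicate 1, 2 or 3 or without mutant replicate 1, 2 or 3.

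Sfrp2, a close relative of Sfrp1 known from fibroblasts, had the next greatest difference but did not pass. It read 394, 522 and 741 in wild type and 1431, 635 and 1527 in the arrays labelled mutant. Mutant replicate 2 lay within the wild-type range, and the log2 difference was 1.04 ± 0.39 (SE, limma adjusted p = 0.290). Dkk3, a secreted protein of the Dickkopf family whose action on Wnt signalling is less settled than that of Dkk1, read 3187, 2397 and 1339 in wild type and 3238, 3992 and 3099 in the arrays labelled mutant. Wild-type replicate 1 lay inside the mutant range and wild-type replicate 3 was the lowest, and the log2 difference was 0.65 ± 0.32 (SE, adjusted p = 0.419). A second Dkk3 probe set gave 0.57.

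The other 6 inhibitors were dim or barely above the dim level, and in each of them the genotypes overlapped. Sfrp4 read 104 ± 43.5 in wild type and 140 ± 15.8 in the arrays labelled mutant (SD, n = 3 each). Wif1, which binds Wnt proteins directly, read 149 ± 57.3 and 109 ± 65.5, a log2 difference of -0.47 with adjusted p = 0.660. Sfrp5, Frzb, Dkk1 and Dkk2 had mean signals between 7.54 and 25.8, where the array gives little basis for a difference. Dkk2 illustrates the scatter at such levels, with 36.4, 2.58 and 1.57 in wild type and 29.2, 2.71 and 37.0 in the arrays labelled mutant.

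Markers of mesenchymal cells, which are a known source of Sfrp1, Sfrp2 and Dkk3, had higher signals in the same arrays. Of 22 markers 1, Col1a1, was called, against 0.923% of all genes. All 12 fibroblast markers and all 10 smooth muscle and pericyte markers lay above 0, with medians of 0.65 and 1.46. At an unadjusted limma p under 0.05 stood 5 of the 12 and 9 of the 10, against 14.5% of all genes. The genotypes did not overlap, with higher signals in the arrays labelled mutant, for 4 of the 12 and 7 of the 10, against 10.4% of all genes. The summed fibroblast signal ran from 33119 to 64195 in wild type and from 68766 to 71386 in arrays labelled mutant, and that of smooth muscle and pericyte markers from 3198 to 10109 and from 11597 to 14130. No marker of these lists was at 0, and the lowest signals were 228 and 8.66. The brightest fibroblast markers, Inmt and Npnt, differed by 0.36 and 0.14, and the brightest of the other list, Acta2 and Tagln, by 1.51 and 1.55, all short of the threshold. The mean log2 level of smooth muscle and pericyte markers was 9.34, 8.35 and 7.71 in the wild-type arrays and 10.0, 9.70 and 10.0 in the arrays labelled mutant. In bulk RNA, more cells of a type and more RNA per cell cannot be told apart.

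Set against these markers within each array, a comparison chosen after seeing the data, the members gave unlike values. Relative to the mean log2 level of the fibroblast markers, Sfrp1 was higher by 1.22 in the arrays labelled mutant and the genotypes did not overlap. Relative to the smooth muscle and pericyte markers the difference was 0.43 and they overlapped. Relative to the fibroblast markers the differences were 0.38 for Sfrp2, -0.01 for Dkk3, 0.13 for the ligand Wnt5a, -0.02 for the ligand Wnt4 and -0.11 for the receptor Fzd1, each with overlap. Relative to the smooth muscle and pericyte markers the 5 stood at -0.41 for Sfrp2, -0.80 for Dkk3, -0.66 for Wnt5a, -0.80 for Wnt4 and -0.90 for Fzd1. For Dkk3 and Fzd1 the genotypes did not overlap. The mean level of these markers was itself higher by 1.45 in the arrays labelled mutant, and that of the fibroblast markers by 0.66. Any gene with a smaller difference falls below 0 by the subtraction, so these signs say nothing particular to the members. The share of all genes without overlap on this scale was not computed. The part of mesenchymal cells in the rise of Sfrp1 was not tested. Median log2 differences of the other marker lists were 0.15 for alveolar type 2, 0.23 for alveolar type 1, 0.12 for club, 0.09 for ciliated, -0.02 for basal, 0.30 for glial, -0.09 for mesothelial and 0.10 for endothelial cells. For blood cells they were -0.18 for general markers, -2.69 for B cells, -1.35 for NK and T cells and -0.32 for macrophages, and the 3 measured neutrophil markers differed by 1.08 to 1.46. Of these lists limma called all 4 measured B cell markers, 3 of 6 NK and T cell markers and the endothelial marker Aplnr, each lower.

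**Figure D3:**
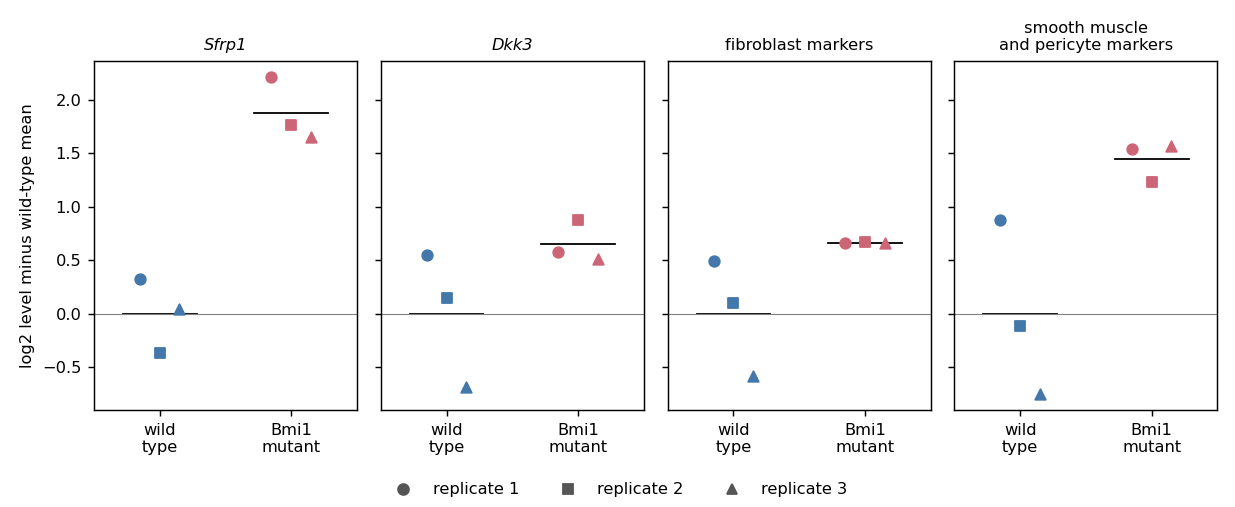
Log2(signal + 16) of Sfrp1 and Dkk3 and the mean log2 level of 12 fibroblast markers and 10 smooth muscle and pericyte markers, each minus its wild-type mean, in 3 wild-type arrays (blue) and 3 arrays labelled mutant (red); shapes give the replicate number and black lines the group means. Wild-type replicate 3 is the lowest array for both marker lists and Dkk3, whereas for Sfrp1 the lowest is wild-type replicate 2.

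Among the ligands, Wnt5a had the smallest p. Wnt5a, a mesenchymal ligand that acts in lung branching and signals mainly without beta-catenin, read 416, 362 and 444 in wild type and 759, 538 and 890 in the arrays labelled mutant. The genotypes did not overlap, and the log2 difference was 0.79 ± 0.22 (SE, limma adjusted p = 0.178). Its other probe sets were less clear: they differed by 0.48, 0.50 and -0.01, and in each the arrays of the genotypes overlapped. The probe set that differed by 0.50 was dim, with mean signals of 4.21 in wild type and 12.6 in the arrays labelled mutant.

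Wnt4, a ligand of kidney, gonad and lung mesenchyme development, read 199, 119 and 136 in wild type and 235, 304 and 193 in the arrays labelled mutant. Mutant replicate 3 lay just under wild-type replicate 1, and the log2 difference was 0.65 ± 0.25 (SE, adjusted p = 0.306). Wnt7a, a ligand best known from limb and reproductive tract, was the one member whose arrays were all lower in the mutant-labelled group, at 30.9, 36.7 and 17.6 against 17.5, 10.2 and 5.13. The margin between wild-type replicate 3 and mutant replicate 1 was small, all 6 signals were dim, and the log2 difference was -0.72 (adjusted p = 0.263). Another Wnt7a probe set, dimmer still, had a difference of 0.07.

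The remaining ligands with signals above 100 overlapped between genotypes on their brightest probe sets. Wnt2, the mesenchymal ligand needed for lung specification together with Wnt2b, read 213, 301 and 40.1 in wild type and 269, 148 and 314 in the arrays labelled mutant. Its low value fell in wild-type replicate 3, the array with the lowest fibroblast and smooth muscle marker levels, and its log2 difference was 0.64 ± 0.64 (SE). Wnt2b differed by 0.33, Wnt5b by 0.40 and Wnt9a by 0.68, while Wnt11 differed by -0.25, with adjusted p values of 0.607 or more. A dimmer Wnt5b probe set without the suffix _x_at did not overlap, at 27.9, 42.1 and 24.2 against 53.0, 47.0 and 62.6. Its difference was 0.58 (limma adjusted p over probe sets = 0.290). Wnt7b, the epithelial ligand, was dim at 19.2 ± 13.8 and 34.7 ± 14.6 (SD, n = 3 each). Wnt1, Wnt10a and Wnt16 had mean signals below 6 in both genotypes.

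**Figure D4:**
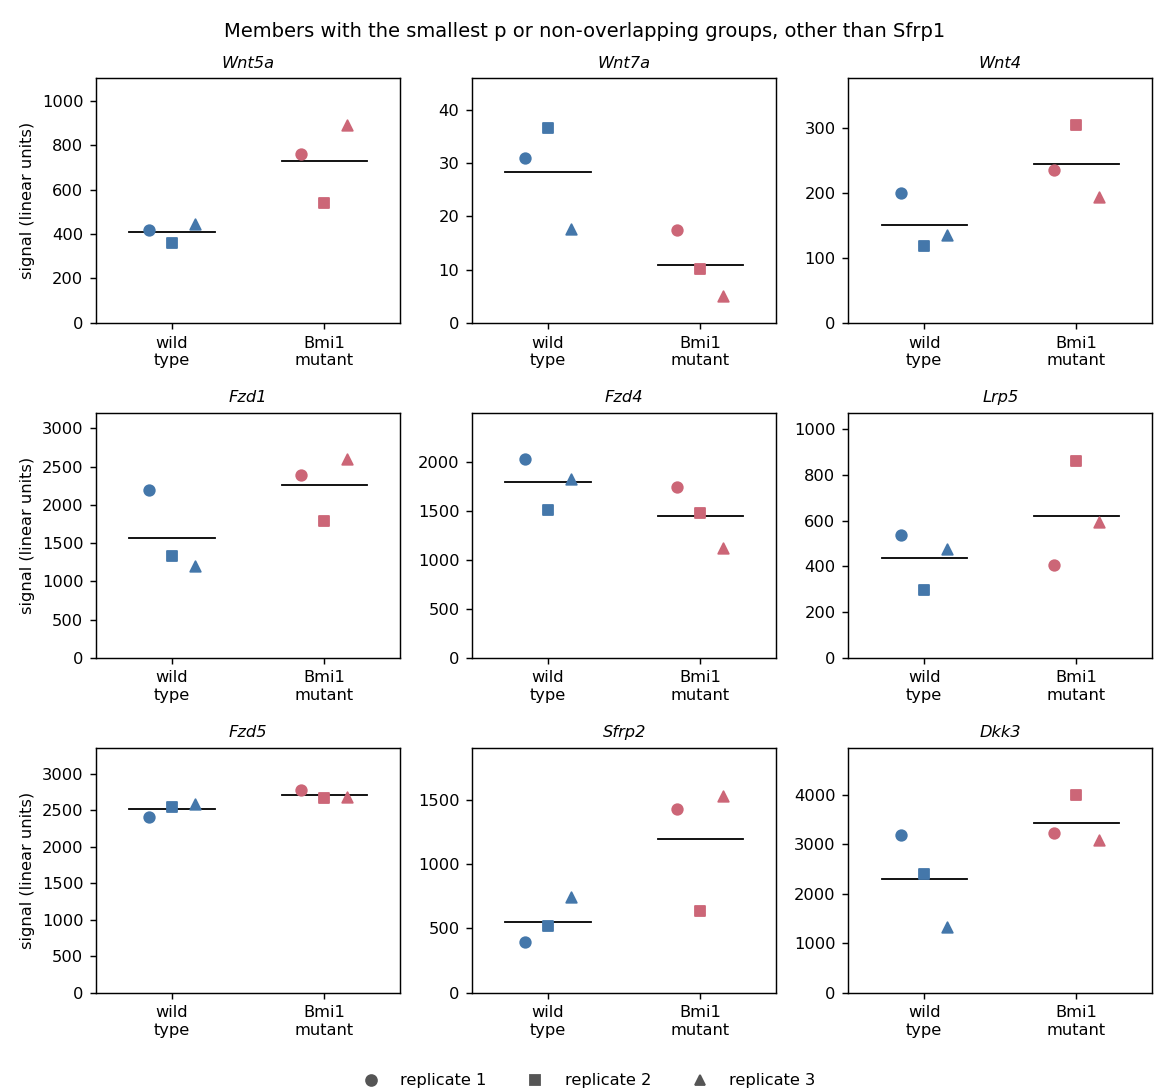
Signal (linear units, axis from 0) of the 9 members other than Sfrp1 that had the smallest p of their role or did not overlap, in 3 wild-type arrays (blue) and 3 arrays labelled mutant (red); shapes give the replicate number and black lines the group means. Wnt5a, Wnt7a and Fzd5 are the panels in which the genotypes do not overlap, and in Fzd5 the group means lie close together at 2510 and 2702.

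The receptors were mostly well above the dim level, and none of them passed the test. All 10 receptors other than Fzd9 had a mean signal of at least 100 in a genotype, and with limma 0 of 11 were called, with 0 at an unadjusted p under 0.05. Fzd1 had the smallest p, with 2189, 1332 and 1197 in wild type and 2395, 1791 and 2595 in the arrays labelled mutant. Wild-type replicate 1 stood within the mutant range, and the log2 difference was 0.55 ± 0.28 (SE, adjusted p = 0.422). Fzd4, which also serves as the receptor of the non-Wnt ligand Norrin, read 2032, 1512 and 1821 against 1740, 1477 and 1119, a log2 difference of -0.32 ± 0.22 (SE, adjusted p = 0.580).

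Fzd5, a receptor linked to beta-catenin signalling, was the only receptor whose genotypes did not overlap on the brightest probe set. It read 2403, 2539 and 2587 in wild type and 2771, 2659 and 2675 in the arrays labelled mutant. The step was small, at 0.11 ± 0.15 (SE, adjusted p = 0.807). A dim second Fzd7 probe set also did not overlap, with 15.3, 19.9 and 11.1 against 34.9, 36.7 and 20.8, a difference of 0.56. Of the co-receptors, Lrp5 read 535, 297 and 477 in wild type and 405, 862 and 594 in the arrays labelled mutant, with overlap and a difference of 0.47 ± 0.33 (SE, adjusted p = 0.587). Lrp6 read 3291 ± 233 and 3512 ± 131 (SD, n = 3 each), a difference of 0.09 ± 0.15 (SE). The widest spread was that of Fzd6, a receptor of planar cell polarity, whose signal of 209 in wild-type replicate 2 stood against 616 to 1075 in the arrays labelled mutant and 741 and 801 in the other wild-type arrays.

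Probe sets of the same gene did not always point the same way. Of the 22 members with more than 1 probe set, 12 had differences of a single sign and 10 had both signs: Wnt5a, Wnt6, Wnt7a, Wnt7b, Wnt8b, Fzd2, Fzd3, Fzd8, Lrp6 and Sfrp5. None of those 10 genes was called. Further probe sets of Fzd7, Wnt5b and Wnt8b, which did not stand for their genes, had non-overlapping genotypes with higher signals in the arrays labelled mutant. They were dim, differed by 0.56, 0.58 and 0.43, and were not called. The values of Wnt3 and Wnt5b come from probe sets with the suffix _x_at and may include other transcripts.

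Several ligand genes are neighbours in the genome, and the differences of neighbours had opposite signs. In the RefSeq gene order of assembly GRCm38.p6, Wnt6 lies next to Wnt10a, Wnt3a next to Wnt9a and Wnt1 next to Wnt10b. Their log2 differences were -0.81 and 0.06, -0.50 and 0.68, and -0.18 and 0.26. None of the 6 passed the test, and standard errors from 0.16 to 0.55 were of the size of most of these differences. Mean signals in wild-type and mutant-labelled arrays were 2.16 and 2.96 for Wnt10a and 4.92 and 1.97 for Wnt1. At such levels a sign carries little information.

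Polycomb complexes are known to occupy promoters rich in CpG, so the promoter letters of the members are of interest beside the expression values. RefSeq sequences (GRCm38.p6, 250 bases before to 50 after a start site) were found for 25 of the 37 genes, with 28 promoters. The CpG count per 300 bases had a median of 24.5 in these 28 promoters and of 7 in all 32851, and 25 of the 28 lay above that median, with a range of 4 to 58. The 32851 promoters belong to 27025 genes and were not matched to the members by gene type. Sfrp1, the only called gene, and Wnt5a had no entry. Sequences are shown for the 4 genes with an entry that had an unadjusted p under 0.05 or did not overlap. None of the 4 was called, and 3 were higher and 1 lower in the arrays labelled mutant. The sequences are written 5′ to 3′ on the strand of the gene, and capitals mark each CpG.
Fzd5 (chr1:64737701-64738000, minus strand): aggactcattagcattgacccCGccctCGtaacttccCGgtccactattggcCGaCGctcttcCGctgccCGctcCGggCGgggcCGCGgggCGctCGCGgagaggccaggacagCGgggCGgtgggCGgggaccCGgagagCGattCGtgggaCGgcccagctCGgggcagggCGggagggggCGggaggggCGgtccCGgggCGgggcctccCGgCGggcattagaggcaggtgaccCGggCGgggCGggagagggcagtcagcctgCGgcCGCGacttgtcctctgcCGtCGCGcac
Sfrp2 (chr3:83766071-83766370, plus strand): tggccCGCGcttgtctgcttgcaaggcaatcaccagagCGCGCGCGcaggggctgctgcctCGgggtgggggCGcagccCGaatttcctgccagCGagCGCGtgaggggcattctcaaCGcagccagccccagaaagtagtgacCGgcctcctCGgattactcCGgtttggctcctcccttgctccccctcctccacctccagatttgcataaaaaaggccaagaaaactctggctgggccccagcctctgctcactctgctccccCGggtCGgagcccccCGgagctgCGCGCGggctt
Wnt4 (chr4:137277385-137277684, plus strand): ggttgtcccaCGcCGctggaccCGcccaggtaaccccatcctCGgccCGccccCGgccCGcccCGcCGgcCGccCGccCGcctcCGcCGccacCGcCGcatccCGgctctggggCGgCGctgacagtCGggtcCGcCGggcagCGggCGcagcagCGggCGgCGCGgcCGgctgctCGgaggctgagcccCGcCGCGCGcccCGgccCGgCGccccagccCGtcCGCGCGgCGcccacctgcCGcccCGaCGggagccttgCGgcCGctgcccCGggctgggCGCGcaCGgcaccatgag
Wnt7a (chr6:91411304-91411603, minus strand): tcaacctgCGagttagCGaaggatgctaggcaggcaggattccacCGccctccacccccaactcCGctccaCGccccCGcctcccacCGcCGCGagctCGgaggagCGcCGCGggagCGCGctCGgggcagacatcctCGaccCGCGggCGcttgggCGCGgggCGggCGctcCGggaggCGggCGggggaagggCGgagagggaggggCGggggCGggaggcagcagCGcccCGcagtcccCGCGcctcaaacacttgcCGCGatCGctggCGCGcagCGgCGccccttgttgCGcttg
The CpG counts of these promoters were 38 in Fzd5, 22 in Sfrp2, 51 in Wnt4 and 42 in Wnt7a. The promoter of Wnt7a, with the lower signal, and that of Wnt4, with the higher signal, were thus both far above the median of all promoters. The TCF/LEF letters CTTTGAT, sought on both strands, stood in 2 of the 28 member promoters, those of Wnt5b and Wnt11, in 3.73% of all promoters and in 0 of the 4 shown. A match or its absence describes only these 300 bases.

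No gene in the rest of the pathway passed the test. Of 94 measured genes in lists of other pathway components, limma called 0, while 19 stood higher and 4 lower at an unadjusted p under 0.05 (14.5% of all genes did so in either direction). The genotypes did not overlap for 19 with higher and 6 with lower signals, against 10.4% and 10.0% of all genes, and the median log2 difference was 0.16.

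Genes that make or receive Wnt proteins mostly lay above 0, and none passed. Porcn, the acyltransferase that attaches the lipid to Wnt proteins, read 195 ± 28.8 in wild type and 396 ± 137 in the arrays labelled mutant (SD, n = 3 each), a log2 difference of 0.93 with adjusted p = 0.178. Wls, the carrier that takes Wnt proteins to the cell surface, read 2196 ± 327 and 1242 ± 498, a difference of -0.88 with adjusted p = 0.259. The glypican gene Gpc4 differed by 0.54 and the pseudokinase receptor gene Ptk7 by 0.67. The list has 13 genes and also holds the ligand genes Wnt8a and Wnt9b, which are not among the members. Of these 13 genes 11 lay above 0 and 2 below, where 50.7% of all genes lay above, and the median was 0.54. Of the R-spondin axis, which raises the level of Frizzled receptors at the surface, the ligand Rspo3 was dim and differed by 1.73 (adjusted p = 0.110), its receptors Lgr5 and Lgr6 by 1.02 and 0.95, and the median of 9 genes was 0.29.

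Among 11 other extracellular antagonists, with a median of 0.14, Apcdd1, a membrane inhibitor that is itself a target of the pathway, read 1208, 693 and 378 in wild type and 1845, 2007 and 1676 in the arrays labelled mutant. The genotypes did not overlap and wild-type replicate 3 was the lowest, and the difference was 1.41 with adjusted p = 0.173. Tpbg, which encodes an inhibitor of Lrp6, differed by 0.69 (adjusted p = 0.126) and Kremen1, a Dkk receptor gene, by 0.41.

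Of 30 components of beta-catenin signalling inside the cell, with a median of 0.04, the factors Tcf7l2 and Lef1 had the smallest p, with lower signals. Tcf7l2 read 3516 ± 592 and 2026 ± 523 (SD, n = 3 each), a difference of -0.81 with adjusted p = 0.195, and Lef1 1358 ± 245 and 771 ± 292, a difference of -0.86 with adjusted p = 0.271. Lef1 is also known from lymphocytes, and the summed signal of 6 NK and T cell markers ran from 11881 to 18476 in wild type and from 3779 to 6186 in arrays labelled mutant. Its part in the Lef1 value was not tested. Dvl1, which relays the signal from the receptor, differed by 0.47. Among 16 genes of planar cell polarity, with a median of 0.13, Dact1 differed by 1.28 (adjusted p = 0.161), Invs by -0.56 and Celsr1 by 0.60.

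Of 21 measured target genes of beta-catenin, 17 lay above 0, against 50.7% of all genes, and the median was 0.23. Limma called 0 and put 7 at an unadjusted p under 0.05, 6 of them higher, against 14.5% of all genes. The genotypes did not overlap for 9 with higher and 1 with lower signals, against 10.4% and 10.0% of all genes. Apcdd1, Lgr5, Lef1, Notum, Rnf43 and Znrf3 are counted here and also in lists above, so the lists are not separate from each other. Sox9, a factor of lung bud tips and cartilage, came nearest to the threshold, with 49.1, 46.7 and 12.7 in wild type and 245, 124 and 312 in the arrays labelled mutant. The genotypes did not overlap, and the difference was 2.22 ± 0.43 (SE, adjusted p = 0.0748). Twist1, a mesenchymal factor, was dim and differed by 1.30 (adjusted p = 0.155). Axin2, the feedback inhibitor most used as a readout of the pathway and picked here for that after its values were seen, read 1368, 1108 and 926 in wild type and 1493, 1763 and 1535 in the arrays labelled mutant. Its arrays did not overlap, and the difference was 0.50 ± 0.20 (SE, adjusted p = 0.308). The mesenchymal marker levels given beside Sfrp1 were higher in the same arrays as these target genes, and their part was not tested.

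**Figure D5:**
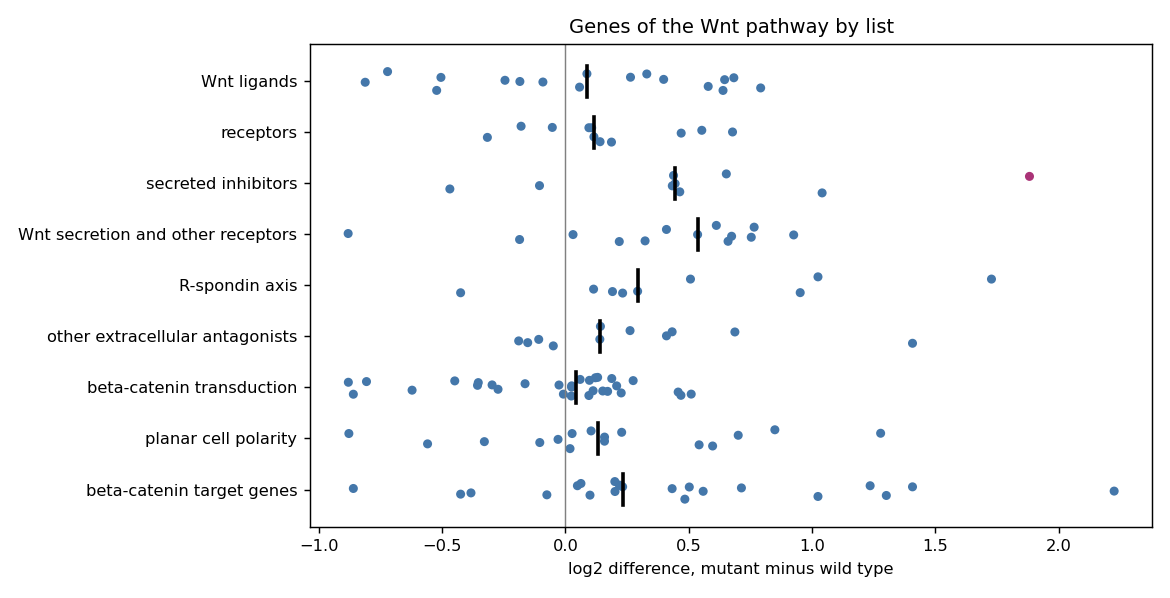
Log2 difference, mutant-labelled minus wild-type arrays, of every measured gene (point) in the ligand, receptor and inhibitor groups and in 6 lists of other Wnt pathway genes; black bars give the list medians, the called gene is purple, and vertical scatter within a list has no meaning. The medians run from 0.04 for beta-catenin transduction to 0.54 for Wnt secretion and other receptors, and Sox9 at 2.22 lies farthest to the right without being called.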

How the data were processed

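Expression was measured on 6 Affymetrix mouse arrays. Each deposited value is the intensity of a probe set, linear and not logged; the submitters' processing notes name Affymetrix Expression Console 1.1. How probes were summarized, background was removed and detection was called is not given in the sources used here. The authors scaled every array to a trimmed mean near 500, so a shift of all genes together cannot be seen. Of 45101 probe sets, 64 controls, 932 with several symbols and 9160 with none were left out.

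Intensities were turned to log2(signal + 16) without further scaling, and limma 3.58.1 (lmFit, then eBayes, under R 4.3.3) compared 3 mutant-labelled with 3 wild-type arrays over all genes, with no covariate and no filter. The number of arrays limits the precision. Arrays were grouped by their titles. In simulated arrays with 200 of 18193 genes changed, 24.7% of genes changed by a log2 of 1 and 69.0% of those changed by 2 were recovered, so small changes can be missed.

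The members, the lists of pathway genes and the cell type markers were chosen with earlier results of these data known. Values in every array are given for members that were called, did not overlap or had 1 of the 3 smallest p of their role, and of each pathway list up to 3 genes with the smallest p are named. The genes Wls, Wnt2, Fzd6, Dkk2 and Axin2 were described in more detail after their values were seen. Alternatives were other normalizations, offsets, probe set rules, a filter on dim genes, another variance prior, the replicate number as a block, an adjusted p threshold of 0.1 and leaving out each array. The listed genes Kremen2, Tcf7 and T, with 7 listed markers, were not analysed here. Figures were drawn with matplotlib 3.10.9.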

Additional observations from a re-analysis of the deposited data

How the results depend on the processing

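Sfrp1 kept its upward direction under every alternative tried, with log2 differences from 1.70 to 2.50 over settings and probe sets. Of its 19 alternatives 11 kept the call and 8 lost it. The 11 include its other probe sets, which are not replicates, and a probe set rule that chose the same probe set. Without the other probe sets, fewer alternatives kept the call than lost it. The count of members called higher was 1 and fell to 0 with an offset of 1 (12 genes higher and 21 lower over all genes, 33 in all), with the replicate block, and without any single array (range 0 to 0); limma then still put 2 to 10 members at an unadjusted p under 0.05. With the offset of 1 the adjusted p of Sfrp1 was 0.0808 and with the block 0.0774. No member was called lower under any of these settings or at an adjusted p under 0.1. Over all genes 168 were called, against 284 among genes above the median level, 265 with an offset of 64, 438 with the trend and robust prior, which also called 1 other pathway gene, Sox9, and 2 to 76 when an array was left out; the causes were not tested, but leaving out an array leaves fewer samples. The median of the ligands was 0.74 among genes above the median level and 0.36 with an offset of 1, and that of the inhibitors 1.04 and 0.83; the filter kept 15 of the 37 members, so its medians rest on 2 ligands and 3 inhibitors. One further probe set each turned the direction of Wnt5a (-0.011) and Wnt7a (0.070).

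Whether replicate numbers pair the arrays is not given, and the main test did not pair them. Deviations of same-numbered arrays correlated at 0.03 to 0.07, below 0.1, and those of other numbers at -0.06 to 0.001. Each array correlated best with its own number, a hint from the data and not from the design. With the replicate block limma called 0 members and 0 of all genes, with 5 and 2611 at an unadjusted p under 0.05.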
